A study of Citrullus lanatus with 12 samples.

Results

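The genes described here had their highest level in watermelon (Citrullus lanatus) anthers at the tetrad stage and lay well below that level at each later stage. They were selected on their measured stage means: their mean deposited log2 value in tetrad libraries had to be at least 8, about 255 normalised reads, and at least 2 log2 units (4-fold) above the means of the mononuclear, dikaryophase and mature stages. The rule selected 206 of the 23440 genes in the table (0.879%), called tetrad-peak genes below. Since the rule compares tetrad with the other stages, every tetrad difference given here is a description of how the genes were chosen. The comparisons among the 3 stages after the tetrad were not part of the rule in the same way: it caps the highest of those stages and leaves their order free.

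All libraries came from progeny of the variety Xinteda Zhengkang 9, grown in a greenhouse, with no treatment and no mutant. Each anther was examined microscopically and classed as tetrad, mononuclear, dikaryophase (the pollen grain with a pair of nuclei) or mature, and the RNA came from material not used for staging. There were 3 libraries per stage, 12 in all, each with 55347640 to 65554998 reads in genes. The labels do not say whether the libraries of a stage came from different plants, so tests measure the spread between these samples only.

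At the tetrad stage the 4 products of a meiosis are still held together in a wall of callose, inside an anther locule lined by the tapetum, the cell layer that feeds the microspores. In flowering plants in general, the tapetum then secretes the enzymes that dissolve the callose and the material of the pollen wall, and later degrades. The free microspore, which has 1 nucleus, divides unevenly to give the pollen grain with its vegetative and generative cells. An anther library mixes RNA of all these cells. Fewer cells of a type and less RNA per cell cannot be told apart in it. The files do not pair gene IDs with names, so the IDs are given as deposited and no role is stated for any of them. For the same reason the labelled tissue was not checked against marker genes.

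A single library matters for most of what follows. Mononuclear replicate 2 held the highest value of the mononuclear libraries for 181 of the 206 tetrad-peak genes (87.9%), against 30.9% of the 17484 genes tested. Its level was a median of 2.58-fold above the mean log2 level of mononuclear replicates 1 and 3 (quartiles 1.81 and 3.77), and a median of 1.01-fold over all tested genes. Set against the tetrad mean of each gene, the median level was 7.68% in mononuclear replicate 1, 24.4% in replicate 2 and 12.4% in replicate 3. Counts of calls, stage orders and medians that use the mononuclear stage mean are therefore also given without replicate 2, for the same 206 genes.

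The tetrad-peak genes covered a wide range of read counts. Normalised reads undo the log of the deposited values and their offset of 1, and equal the reads of a gene after the authors' scaling of each library. Mean tetrad levels ran from 285 to 506492 normalised reads, with a median of 2179 and quartiles of 782 and 6718. In CPM (counts scaled to the library total), 174 genes reached 10, 55 reached 100 and 12 reached 1000 on average in tetrad libraries. The gap between the tetrad mean and the next stage had a median of 2.77 log2 units (6.83-fold) and a maximum of 6.29. It was at least 3 units (8-fold) for 87 genes, at least 4 units (16-fold) for 35 and at least 5 units (32-fold) for 7.

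Together the 206 genes took 5.21%, 5.50% and 4.74% of all reads in the 3 tetrad libraries. Their share was 0.302%, 1.19% and 0.419% in the mononuclear libraries, 0.103%, 0.0917% and 0.0970% in the dikaryophase libraries, and 0.0914%, 0.102% and 0.0891% in the mature libraries. Every tetrad library thus lay above every later one, and the dikaryophase and mature ranges overlapped. The 10 genes with the highest tetrad values held 63.8% ± 0.327 of the tetrad-peak reads at the tetrad stage (SD, n = 3). Without them the other genes took 1.87% ± 0.149 of tetrad reads, 0.257% ± 0.160 of mononuclear reads, 0.0918% ± 0.00441 of dikaryophase reads and 0.0866% ± 0.00448 of mature reads (SD, n = 3 each). Mononuclear replicates 1 and 3 held 0.141% and 0.190%, so replicate 2 raised the mononuclear mean. Read counts are not per gene length, so they rank genes by their part of the reads and not by transcript number.

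**Figure D1:**
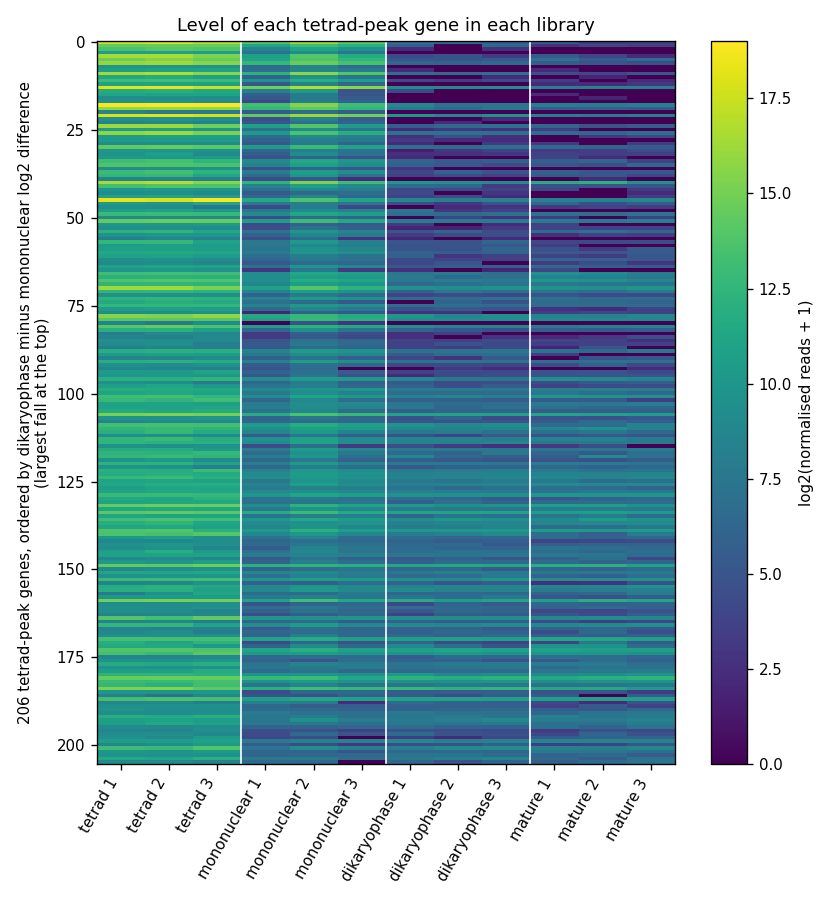
Level of each of the 206 tetrad-peak genes (rows) in each of the 12 libraries (columns), as log2(normalised reads + 1), with rows ordered by the log2 difference between dikaryophase and mononuclear, the largest fall at the top. Mononuclear replicate 2 is the brightest of the mononuclear columns for 181 genes, and the upper rows go dark from the dikaryophase on while the lower rows keep a low level to maturity.

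Cla006201 had the most reads of these genes, 483516, 506028 and 529931 normalised reads in the tetrad libraries. It had 9812, 46462 and 8796 in the mononuclear libraries, 547, 153 and 198 in the dikaryophase libraries and 289, 260 and 330 in the mature libraries. The tetrad libraries differed little in this gene (log2 SD 0.07), and mononuclear replicate 2 stood well above the other 2 mononuclear libraries. Cla015675 had both the second highest tetrad level and the widest gap of all 206 genes, 6.29 log2 units. Its normalised reads were 340841, 271063 and 486565 in tetrad libraries, 2840, 14333 and 2309 in mononuclear libraries, 471, 274 and 347 in dikaryophase libraries and 340, 327 and 450 in mature libraries. Here tetrad replicate 3 was the highest of the tetrad libraries, and the dikaryophase and mature libraries overlapped.

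Cla017250, Cla015853 and Cla021877 followed in tetrad level, and had smaller gaps than these 2 genes, 2.85, 2.21 and 2.67 log2 units. Cla015853 had 278330, 337391 and 188588 normalised reads in tetrad libraries, 29578, 118804 and 50631 in mononuclear libraries, 596, 505 and 692 in dikaryophase libraries and 316, 326 and 340 in mature libraries. Its gap was close to the threshold of the rule, although its level at maturity was far lower. All 10 genes with the highest tetrad values had their highest mononuclear value in replicate 2, and 8 of them had their highest tetrad value in replicate 2. All 10 were also called lower at the dikaryophase than at the mononuclear stage by the test described below.

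**Figure D2:**
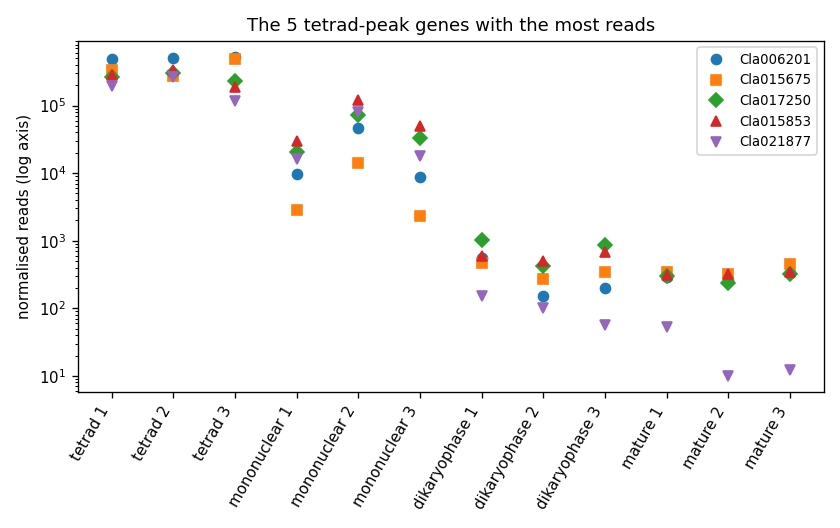
Normalised reads (log axis) of the 5 tetrad-peak genes with the highest tetrad values in each of the 12 libraries, in order of stage, with 1 point per gene and library. In all 5 genes mononuclear replicate 2 lies above the other 2 mononuclear libraries, and every dikaryophase and mature library lies below every mononuclear one.

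Genes with far fewer reads than these could have gaps as wide. Cla022664 had 3650, 2172 and 5164 normalised reads at the tetrad stage and 18.5, 78.9 and 25.2 at the mononuclear stage, a gap of 6.14 units. It had 71.6, 19.6 and 11.5 normalised reads at the dikaryophase and 13.7, 189 and 41.2 at maturity, so the later stages overlapped one another. Cla004909 had 345, 197 and 572 normalised reads in tetrad libraries, 0, 24.8 and 6.31 in mononuclear libraries and none in any dikaryophase or mature library. Its gap of 5.89 units was set by the mononuclear stage, where replicate 1 held no read, so its size depends on the pseudocount of 1.

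The thresholds divided a continuous range. The nearest genes inside the 2-unit gap were Cla013851 and Cla010394, with gaps of 2.019 and 2.024, and the nearest outside were Cla010492 and Cla003898, with 1.993 and 1.991. At the level threshold, Cla011852 and Cla017356 had tetrad means of 8.02 and 8.11 and were included, while Cla009706 and Cla006279 met the gap but had tetrad means of 7.92 and 7.88. In 198 of the 206 genes the lowest tetrad library lay above the highest of the other 9 libraries, which the rule favours, against 11.9% of all genes tested. The remaining 8 genes overlapped, and in 6 of them the highest later value was that of mononuclear replicate 2. In 69 genes the lowest tetrad library was at least 4-fold above every later library on the deposited scale. Without mononuclear replicate 2 the tetrad libraries lay above all others in 204 genes, against 13.2% of all genes tested. They were then at least 4-fold above in 156 genes, so the count of 69 depended on that library. The share of all tested genes at 4-fold was not computed.

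The mononuclear stage came next after the tetrad in 185 genes, maturity in 13 and the dikaryophase in 8. Stage means fell at every step in 110 genes, a count that includes 5 genes with no read at either of the last 2 stages. In another 75 the order was tetrad, mononuclear, mature, dikaryophase. By the mononuclear stage the log2 level had covered a median of 58.4% of the distance from the tetrad mean to the lowest stage mean (quartiles 43.4% and 73.1%). The median log2 difference was -2.85 for mononuclear minus tetrad and -5.10 for mature minus tetrad, against -0.01 for both over all genes tested. Without mononuclear replicate 2 the mononuclear stage came next in 166 genes, maturity in 23 and the dikaryophase in 17. Stage means then fell at every step in 96 genes, a count that leaves those 5 out. The order tetrad, mononuclear, mature, dikaryophase held in 65. The median share of the fall reached by the mononuclear stage was 66.9%, and the median difference for mononuclear minus tetrad was -3.29. The medians over genes of the mean normalised reads per stage were 2179 for tetrad, 271 for mononuclear (179 without replicate 2), 78.7 for dikaryophase and 68.5 for mature anthers.

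**Figure D3:**
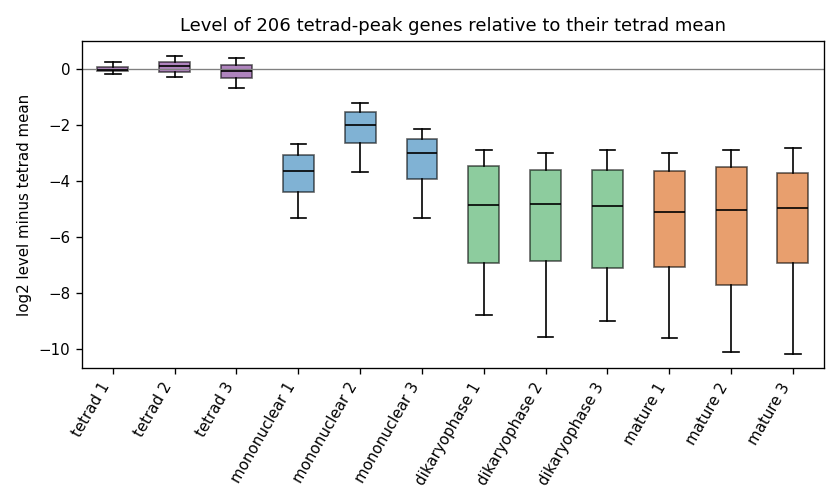
Log2 level of the 206 tetrad-peak genes minus their own tetrad mean in each of the 12 libraries. Boxes give the median and quartiles over genes and whiskers the 10th and 90th percentiles, and the box of mononuclear replicate 2 lies above those of mononuclear replicates 1 and 3, while the dikaryophase and mature boxes lie at similar heights.

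At the dikaryophase many of these genes stood lower still than at the mononuclear stage. All 206 genes passed the filter of 1 CPM in 3 libraries, and 156 of them would have passed on the 9 later libraries alone. Genes were called with limma on the deposited log2 values at a Benjamini-Hochberg adjusted p under 0.05 and a log2 fold change of at least 1 in size. Lower calls, dikaryophase against mononuclear, numbered 103 of the 206 genes (50.0%), where 2.89% of all tested genes were. Higher calls numbered 0 with limma, against 3.46% of all genes tested. There were also 0 at an unadjusted p under 0.05 with the same fold change, and 0 with limma-voom (against 2.90% of all genes tested). The median log2 fold change was -1.67 over the 206 genes, with quartiles of -3.51 and -0.65, and 0.00 over all tested genes. The 3 dikaryophase libraries lay wholly below the 3 mononuclear ones in 131 genes (63.6%), against 13.5% of all genes tested. Without mononuclear replicate 2 the calls were 78 (37.9%, against 2.25% of all genes tested), the median was -1.23, and the dikaryophase libraries lay wholly below the other 2 mononuclear ones in 132 genes (64.1%, against 17.6%). With limma-voom on recovered reads the calls were 82 (39.8%, against 2.84% of all genes tested). The rule and the filter both use tetrad reads, so the fit was also run on the 17219 genes with 1 CPM in 3 of the 9 later libraries, an alternative added after seeing the data. It called 79 of the 156 tetrad-peak genes it held (50.6%), against 2.66% of all its genes.

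Of the genes with the largest falls at this step, Cla021877 had 154, 102 and 57.4 normalised reads in the dikaryophase libraries, against 16043, 81435 and 17891 in the mononuclear ones. Its log2 fold change was -8.20 ± 0.70 (SE, limma adjusted p = 3.51e-05). The dikaryophase libraries lay far below all 3 mononuclear ones. Cla003561 had 49.3, 0 and 79.4 normalised reads in the dikaryophase libraries, against 2249, 8750 and 4621 in the mononuclear ones (log2 fold change -8.14 ± 1.26, limma adjusted p = 0.00141). The size of its fall depends on the library with 0 reads and on the pseudocount. It was -6.14 without dikaryophase replicate 2 and -7.31 with a pseudocount of 5. Both calls held in all 22 alternatives, with adjusted p of at most 0.000573 for Cla021877 and 0.0141 for Cla003561. Of the 103 falls called, 82 were at least 4-fold and 26 at least 32-fold. The shares of all tested genes at these sizes were not computed. They can be at most the 2.89% called lower at 2-fold.

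Between maturity and the dikaryophase far fewer of these genes were called. Lower calls at maturity numbered 18 (8.74%), against 3.01% of all tested genes, and higher calls 4 (1.94%), against 1.93%. The median log2 fold change was -0.13 over the 206 genes and 0.01 over all tested genes. The fit filtered on the 9 later libraries called 14 of its 156 tetrad-peak genes lower (8.97%, against 2.98%). It called 3 higher (1.92%, against 1.94%). Mature libraries lay wholly below the dikaryophase ones in 38 genes (18.4%, against 13.8% of all genes) and wholly above them in 23 (11.2%, against 15.5%). The count of lower calls depended on single libraries and on the test. Leaving out dikaryophase replicate 3 gave 9 (4.37%, against 1.97% of all genes tested). Leaving out mature replicate 2 gave 10 (4.85%, against 2.53%). The count was 11 (5.34%) without dikaryophase replicate 1 (against 3.38%) or mature replicate 1 (against 2.50%). It was also 11 without tetrad replicate 1 (against 2.87%) or 2 (against 2.88%), and 6 with limma-voom. The 6 were 2.91% of the 206 genes, against 2.77% of all genes tested with limma-voom. With the 3 later stages fitted alone the count was 7 (3.40%, against 2.64%). In that fit and with limma-voom the share of tetrad-peak genes was thus near that of all genes. The higher calls numbered 0 with limma-voom, against 3.13% of all genes tested, and 1 to 7 as libraries were left out in turn. They numbered 1 (0.485%) without dikaryophase replicate 3 (against 0.995%), mature replicate 2 (1.27%), or tetrad replicate 1 (1.77%) or 2 (1.81%). Without dikaryophase replicate 2 (against 1.87%) or mature replicate 1 (1.20%) there were 2 (0.971%). Without mononuclear replicate 1 there were 7 (3.40%, against 2.04%).

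Cla022116 had the largest fall of this step, with 9.76, 0 and 0 normalised reads in the mature libraries, against 43.5, 105 and 112 in the dikaryophase libraries. The log2 fold change was -5.20 ± 0.80 (SE, limma adjusted p = 0.00205), and -3.58 with a pseudocount of 5. The gene was called in all 22 alternatives. Cla006755 had no read at maturity, against 183, 7.47 and 13.4 normalised reads at the dikaryophase. Most of its dikaryophase reads were thus in replicate 1. Its call (limma adjusted p = 0.00612) was lost in 1 of 22 alternatives, over which the adjusted p ran from 0.00201 to 0.0861. In the other direction, Cla016789 had 80.0, 64.9 and 34.0 normalised reads at maturity, against 16.4, 13.1 and 11.5 at the dikaryophase, a log2 fold change of 1.98 ± 0.40 (limma adjusted p = 0.00931). It was lost in 1 of 22 alternatives, with adjusted p from 0.00231 to 0.0750. Cla014431 was also called higher at maturity, on 4, 4 and 7 reads against 0 in all dikaryophase libraries, and its call was lost in 14 of 21 alternatives, with adjusted p from 0.00453 to 0.322.

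**Figure D4:**
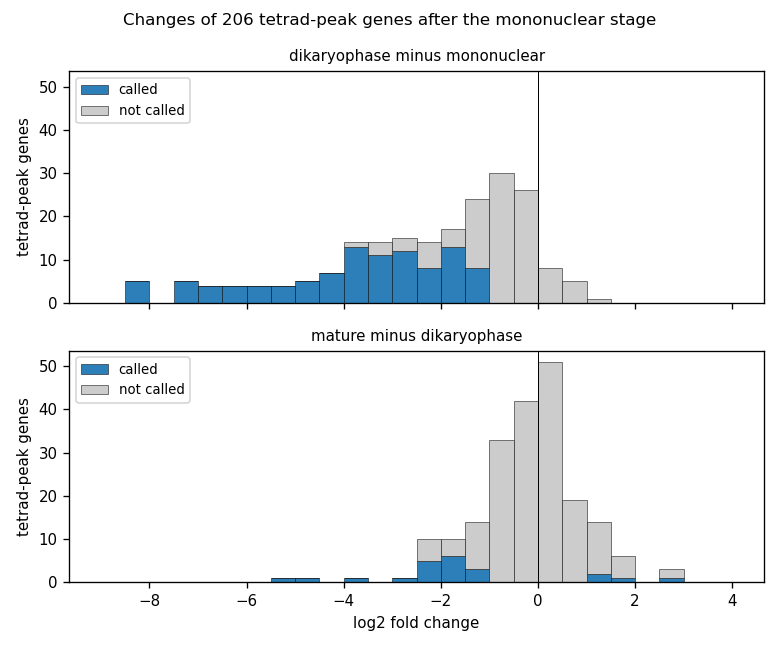
Number of tetrad-peak genes by log2 fold change, in bins 0.5 wide, for dikaryophase minus mononuclear (top) and mature minus dikaryophase (bottom), with called genes in blue and the rest in grey. The upper distribution lies mostly below 0, with all 103 calls there, and the lower one is centred near 0, with 18 calls below 0 and 4 above.

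Set directly against the mononuclear stage, 121 of the 206 genes (58.7%) were called lower at maturity, where 7.80% of all tested genes were, and 2 higher, against 7.68%. The median log2 fold change was -1.84, and 0.00 over all tested genes. With the filter on the 9 later libraries, 90 of the 156 tetrad-peak genes held were called lower (57.7%, against 7.36%). In that fit 1 was called higher (0.641%, against 7.76%). Mature libraries lay wholly below the mononuclear ones in 129 genes (62.6%, against 22.1% of all genes) and wholly above them in 4 (1.94%, against 21.7%). Without mononuclear replicate 2 the counts were 99 lower (48.1%, against 7.53% of all genes tested) and 3 higher (1.46%, against 7.61%), and the median was -1.37. The mature libraries then lay wholly below in 129 genes (62.6%, against 25.6%) and wholly above in 6 (2.91%, against 24.6%). This comparison shares its libraries with the pair above. Cla021877 again fell furthest, with 53.7, 9.83 and 12.4 normalised reads in the mature libraries against the mononuclear values given above (log2 fold change -10.49 ± 0.70, limma adjusted p = 1.14e-06). Cla011332 had no read in the mature libraries, against 389, 2366 and 779 normalised reads in the mononuclear ones. With a floor of 3 reads over the mature libraries, it was at least 14878-fold lower at maturity than at the tetrad stage, where it had 12345, 17557 and 14526. That bound covers counting error only.

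The 2 genes called higher at maturity were Cla018490 and Cla005903. Cla018490 had 196, 176 and 130 normalised reads at maturity, against 70.8, 67.6 and 29.5 at the mononuclear stage. All mature libraries lay above all mononuclear ones (log2 fold change 1.64 ± 0.32, limma adjusted p = 0.00231), and the call held in all 22 alternatives. Its tetrad libraries stood at 971, 807 and 1162 normalised reads. Cla005903 had 43.9, 65.8 and 68.0 normalised reads at maturity, against 15.4, 22.5 and 0 at the mononuclear stage (limma adjusted p = 0.0341), and its call was lost in 7 of 21 alternatives, with adjusted p from 0.0129 to 0.107. Leaving out any mature library or mononuclear replicate 3 left 1 gene called higher. The mononuclear libraries held the lowest stage mean in 8 of the 206 genes, and a later stage exceeded the mononuclear mean in 21. Without mononuclear replicate 2 these counts were 16 and 40.

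Where the level ended at maturity differed between genes. Fewer than 1 CPM in each mature library was found for 85 of the 206 genes, and the same held for 73 genes at the dikaryophase and 11 at the mononuclear stage (31 without mononuclear replicate 2). At the other end, 18 genes kept at least 10 CPM in each mature library, 19 did so at the dikaryophase and 43 at the mononuclear stage, with or without that library. These sets were split by their reads at maturity, which fixes part of any difference between them and favours genes with many tetrad reads among the 18. Their tetrad means had a median of 17109 normalised reads (6816 to 89741) in the 18 genes and of 962 (285 to 192452) in the 85. As a share of the tetrad mean, the median mature level was 9.39% in the 18 genes and 0.603% in the 85, and the median mononuclear level was 19.7% and 13.7% (13.4% and 8.27% without mononuclear replicate 2). No read at all was found for 14 genes at maturity, 9 at the dikaryophase and 0 at the mononuclear stage, and 5 genes had none at either of the last 2 stages.

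Cla007294 and Cla006698 show both ends. Cla007294 had 23725, 25073 and 23229 normalised reads in tetrad libraries, 6416, 8481 and 2567 in mononuclear libraries, 5004, 3614 and 5102 in dikaryophase libraries and 3123, 3890 and 5578 in mature libraries. Its later stages overlapped one another. Cla006698 had 1682, 1935 and 1509 normalised reads in tetrad libraries, 163, 586 and 204 in mononuclear libraries, and none in the 6 later libraries. With 3 reads over each stage as the floor it was at least 1779-fold lower at the dikaryophase and at least 1721-fold lower at maturity than at the tetrad stage.

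The tetrad libraries themselves differed more in these genes than in all genes above the same tetrad level. The SD of the log2 value over the 3 tetrad libraries had a median of 0.23 (quartiles 0.14 and 0.48) in the 206 genes, and of 0.11 (quartiles 0.06 and 0.17) in the 14450 genes with a tetrad mean of at least 8. Tetrad replicate 3 was the lowest of the tetrad libraries for 113 genes (54.9%, against 34.9% of the 14450) and the highest for 63 (30.6%, against 34.5%). Replicate 2 was the highest for 116 (56.3%, against 36.9%). A difference of at least 2-fold between tetrad replicates 3 and 2 was found for 42 genes, 14 with replicate 3 higher (6.80%, against 0.256% of the 14450) and 28 with replicate 3 lower (13.6%, against 0.616%). The widest tetrad spread was that of Cla018976, with 243, 751 and 2424 normalised reads in tetrad replicates 1, 2 and 3. Cla000841 went the other way, with 14154, 15381 and 4441. In contrast, Cla005497 had 6151, 6218 and 6152.

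Most of these genes were raised in mononuclear replicate 2, and those lower in tetrad replicate 3 tended to be raised there by more. Over the 206 genes, the log2 difference between tetrad replicates 3 and 2 and that between mononuclear replicate 2 and the mean of replicates 1 and 3 had a Spearman rho of -0.43 and a Pearson r of -0.40. The correlation is across genes, which are not independent replicates, and the axes share no library. In the 28 genes at least 2-fold lower in tetrad replicate 3, the median level was 7.46%, 29.4% and 10.2% of the tetrad mean in mononuclear replicates 1, 2 and 3. In the 14 genes at least 2-fold higher there, it was 5.73%, 6.74% and 4.92%. Of the mononuclear libraries, replicate 2 separated these sets the most, and at the dikaryophase the sets lay at medians of 4.77% and 4.42% of the tetrad mean. These sets were formed after the values were seen and carry no test.

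**Figure D5:**
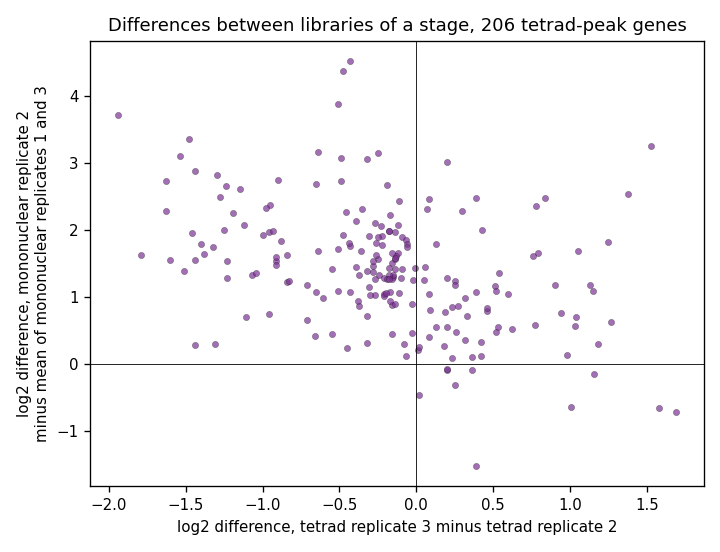
For each of the 206 tetrad-peak genes, the log2 difference of mononuclear replicate 2 from the mean of mononuclear replicates 1 and 3 (vertical) against the log2 difference of tetrad replicate 3 from tetrad replicate 2 (horizontal). Genes left of 0 mostly lie high, most points are above 0 on the vertical axis, and the Spearman rho is -0.43.

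Some tetrad-peak genes had neighbouring ID numbers. Of the 206, 43 (20.9%) had another within 5 ID numbers, in 18 runs: 1 of 5 genes, 4 of 3 and 13 of 2. The share for 206 genes drawn from the whole table was not computed. The run of 5 was Cla001208, Cla001210, Cla001213, Cla001214 and Cla001215, which had 326 to 1021 normalised reads in the tetrad libraries, 3.08 to 393 in the mononuclear libraries, at most 22.9 at the dikaryophase and at most 15.7 at maturity. All 5 were highest in replicate 2 of the mononuclear libraries, and 4 of them were called lower at maturity than at the mononuclear stage. The table gives no positions, and reads shared between near-identical copies could be split among such genes, so these 5 are not counted as separate evidence.

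The same rule applied to the other stages selected 36 genes for the mononuclear stage, 0 for the dikaryophase and 185 for maturity. The median gap was 2.77 log2 units for tetrad-peak genes, 2.33 for mononuclear-peak genes and 2.37 for mature-peak genes, and gaps of at least 4 units were found in 35, 2 and 9 genes. In libraries of their own stage the selected genes took 5.15% ± 0.380 of tetrad reads, 5.56% ± 0.407 of mononuclear reads and 3.12% ± 0.493 of mature reads (SD, n = 3 each). The neighbouring-number share was 20.9% in tetrad-peak genes, 5.56% in mononuclear-peak genes and 29.7% in mature-peak genes. Such a share rises with the size of a set, and the sets held 206, 36 and 185 genes. The shares can therefore not be compared with one another. These are counts on chosen genes and were not tested.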

How the data were processed

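RNA sequencing of 12 watermelon anther libraries was used, grouped by the stage label and numbered by title. The authors deposited 1 table of log2 values for 23440 genes, and its columns all belonged to a sample. No aligner, counting tool, strand setting, genome build or annotation is named in the labels or the table, so reads of overlapping or near-identical genes cannot be assigned with certainty. Taken off the log scale and less 1, the deposited log2 values of each library fell on whole multiples of 1 step (100% of values, tolerance 0.01 reads), so reads were recovered, and CPM computed, by dividing by the step.

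The 17484 genes that reached 1 CPM in 3 or more libraries were fitted with limma 3.58.1 in R 4.3.3, with a mean per stage (8 residual degrees of freedom), a trended variance and Benjamini-Hochberg adjustment over all of them. Design and alternatives assumed log2 values. The fit was also run on simulated reads with no outlying library. That outcome is not given here, and no result rests on it. Deviations from the stage means of same-numbered libraries correlated at 0.113 to 0.175 between the mononuclear and dikaryophase stages, over 0.1 in 3 of 3 pairs. For no other stage pair were all 3 over 0.1. These values are low, and the highest, 0.364, was between dikaryophase and mature replicates 3. A pairing of libraries by number is thus not established, and the main fit uses none. Gene lists by description and cell type markers were not computed, since the table has no names. Genes that could be named were the 10 highest at the tetrad stage, the 10 widest gaps, 2 on each side of each threshold, up to 4 falls and 4 rises called without overlap per later comparison, the 4 largest and 4 smallest tetrad SDs and the 5 highest with no mature read. Cla007294 and the run of 5 ID numbers were chosen after their values were seen. The members, lists and tests were chosen with earlier results of these data known. Intervals and floors cover counting error only.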

Additional observations from a re-analysis of the deposited data

How the results depend on the processing

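Members by the rule numbered 206, and 560 with a gap of at least 1, 87 with a gap of at least 3 and 135 with a level of at least 10, by construction. They numbered 166 to 244 as libraries were left out in turn, 166 without mononuclear replicate 1 (all among the 206) and 244 without mononuclear replicate 2 (205 of the 206 among them). A gap of at least 3 without mononuclear replicate 2, added after seeing the data, gave 126. Scaling by library size alone gave 219 and included all 206. Under it the median of all tested genes was 0.15 for dikaryophase minus mononuclear and -0.14 for mononuclear minus tetrad, against 0.00 and -0.01 with the deposited values.

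For dikaryophase minus mononuclear, lower calls ranged from 78 to 111 over the left-out libraries (78 without mononuclear replicate 2) and were 42 among the 87 members with a gap of at least 3, and higher calls stayed at 0 in every alternative. Over the left-out libraries, 2.25% to 2.99% of all tested genes were called lower and 2.57% to 3.55% higher. For mature minus mononuclear, lower calls ranged from 99 to 134, and were 48 among those 87. The higher calls, 2 as reported, ranged from 1 to 3 over the left-out libraries and were 1 with the 3 later stages alone, limma-voom, the replicate block, the filter on the 9 later libraries, a log2 fold change of at least 2, or the narrower set. Of all tested genes, 7.18% to 7.90% were called lower and 6.77% to 7.88% higher over the left-out libraries. For mature minus dikaryophase, lower calls ranged from 9 to 21, with 7 for the 3 later stages alone, 6 for limma-voom, 9 for a log2 fold change of at least 2 and 4 in the narrower set. Higher calls there, 4 as reported, ranged from 1 to 7. They were 1 for the 3 later stages alone (0.485%, against 1.68% of all genes tested) and 0 for limma-voom (against 3.13%). Dropping mononuclear replicate 2 together with mature replicate 3, added after seeing the data, gave 8 (3.88%, against 3.11%). There was 1 for a log2 fold change of at least 2, and there were 2 in the narrower set. Over the left-out libraries, 1.97% to 3.38% of all tested genes were called lower and 0.995% to 2.51% higher in that comparison. Leaving out a library removes samples, and the narrower set has fewer genes. For the rest the cause was not tested.

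The correlations given above do not establish that replicate numbers pair libraries of different stages. A replicate block was fitted as an alternative. With the replicate block the lower calls were 103, 18 and 124 and the higher calls 0, 5 and 1, for dikaryophase minus mononuclear, mature minus dikaryophase and mature minus mononuclear. The lower calls were 50.0%, 8.74% and 60.2% of the 206 genes, against 2.92%, 3.13% and 7.80% of all genes tested. The higher calls were 0%, 2.43% and 0.485%, against 3.47%, 2.12% and 7.72%. The block thus did not move the counts for dikaryophase minus mononuclear. Count-model tests and TMM factors were not run. limma-voom with library sizes from the deposited factors was added in their place.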

Other observations

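Mononuclear replicate 2 was also the highest mononuclear library for 106 of the 185 genes that the same rule selects at maturity (57.3%), and for 25 of the 36 it selects at the mononuclear stage (69.4%), against 30.9% of all tested genes. For the mature-peak genes its level was a median of 1.57-fold above the mean log2 level of replicates 1 and 3. That library was thus most often the highest mononuclear library in genes that peak before and after its stage. The rule for the mononuclear stage uses a mean that includes replicate 2. It therefore favours genes raised in that library, and their share of 69.4% is partly built in.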
